A study of Mus musculus with 48 samples.

Results

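The genes described here were 9 keratin and bile duct genes, Krt7, Krt8, Krt18, Krt19, Krt20, Krt23, Epcam, Sox9 and Spp1, of 46517 mouse genes counted. They were chosen by name with their levels in these samples already known, so their own values are given as a description and without p-values. Liver spheroids made from hepatocyte-enriched primary mouse liver cells were engrafted on the iris, in the anterior chamber of the eye (ACE), and RNA was sequenced from 5 explants taken 2 months post-tx (transplantation). The other groups were 3 naïve irises, 3 livers, 3 hepatocyte-enriched preparations of the kind used to form spheroids, and 2 samples of spheroids kept in vitro. All samples were labelled as wild-type albino mice of the strain C57BL/6N, while the methods of the study name albino B6/J mice, at least 3 months old and of both sexes. An explant was the engrafted spheroids together with the iris around them. The hepatocyte preparations came from collagenase perfusion and a Percoll density step that enriched hepatocytes, and the gall bladder had been discarded.

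Keratins are the intermediate filament proteins of epithelial cells and assemble as pairs of a type I and a type II chain. Hepatocytes use a single pair, Krt8 (type II) with Krt18 (type I). Cholangiocytes, the cells that line bile ducts, add Krt7 (type II) and Krt19 (type I), and also carry Epcam, an adhesion protein of epithelia that mature hepatocytes lack, Sox9, a transcription factor of duct cells, and Spp1 (osteopontin), a secreted phosphoprotein that macrophages make as well. Krt20 (type I) is best known from the surface epithelium of the intestine and from urothelium, and Krt23 (type I) is a keratin known to be induced in injured liver.

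The clearest pattern was that of Krt20. No liver and no hepatocyte preparation held a read of it, while each of the 5 explants did, and so did both in vitro spheroid samples at very unequal levels. Krt23 was higher in every explant than in every iris, liver, hepatocyte preparation and spheroid sample. The pair Krt8 and Krt18 was highest in spheroids in vitro. Krt7 and Krt19 were highest in explants 1 and 4, which were also the explants with the most keratins of stratified epithelium. Spp1 was as abundant in irises as in explants. Hepatocyte preparations were almost empty of Krt7, Krt19 and Epcam.

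Positions are those of the count files (GRCm38). Krt7 (ENSMUSG00000023039) is at chr15:101411043-101430313 on the plus strand, Krt8 (ENSMUSG00000049382) at chr15:101996711-102004342 on the minus strand and Krt18 (ENSMUSG00000023043) at chr15:102028216-102032026 on the plus strand. The starts of Krt8 and Krt18 are 23874 bases apart and point away from each other. On chromosome 11, all on the minus strand, are Krt20 (ENSMUSG00000035775) at chr11:99428403-99438150, Krt23 (ENSMUSG00000006777) at chr11:99477974-99493137 and Krt19 (ENSMUSG00000020911) at chr11:100140810-100148665. The other genes are Sox9 (ENSMUSG00000000567, chr11:112782224-112787760, plus strand), Epcam (ENSMUSG00000045394, chr17:87635979-87651106, plus strand) and Spp1 (ENSMUSG00000029304, chr5:104435118-104441050, plus strand). Levels are given in TPM, in which counts are divided by the exon length of a gene and scaled to the same total in each sample, so that genes can be compared. For Krt7 that length is 7055 bases because all annotated exons are joined, against 1400 to 4135 bases for the other 8 genes.

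The sequences before the starts of the 2 keratins that stood above the tissues an explant is made of, Krt20 and Krt23, and of the hepatocyte pair, Krt8 and Krt18, are shown so that they can be compared. Each is the 250 bases before the start, 5′ to 3′ on the strand of the gene, from RefSeq in GRCm38.p6, at chr11:99438154-99438403 for Krt20, chr11:99493121-99493370 for Krt23, chr15:102004343-102004592 for Krt8 and chr15:102027966-102028215 for Krt18. RefSeq entries were found for 7 of the 9 genes, Krt19 and Sox9 being the others. Capitals mark matches to TGANTCA (the AP-1 motif) and GGAATG (the core of the TEAD motif) on either strand, and to TATAAA on the strand of the gene.
Krt20: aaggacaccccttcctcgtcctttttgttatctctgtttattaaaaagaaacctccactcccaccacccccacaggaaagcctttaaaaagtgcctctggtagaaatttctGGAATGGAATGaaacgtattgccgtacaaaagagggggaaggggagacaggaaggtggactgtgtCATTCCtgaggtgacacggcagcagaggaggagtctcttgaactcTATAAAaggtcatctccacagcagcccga
Krt23: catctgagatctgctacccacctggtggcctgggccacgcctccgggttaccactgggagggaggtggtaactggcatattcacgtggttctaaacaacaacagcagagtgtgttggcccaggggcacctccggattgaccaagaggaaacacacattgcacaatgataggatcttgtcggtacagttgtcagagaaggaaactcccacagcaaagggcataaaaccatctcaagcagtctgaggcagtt
Krt8: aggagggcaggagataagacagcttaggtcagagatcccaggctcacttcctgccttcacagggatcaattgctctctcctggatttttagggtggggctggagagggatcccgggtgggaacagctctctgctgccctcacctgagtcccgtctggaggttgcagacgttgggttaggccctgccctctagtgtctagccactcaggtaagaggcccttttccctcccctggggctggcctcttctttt
Krt18: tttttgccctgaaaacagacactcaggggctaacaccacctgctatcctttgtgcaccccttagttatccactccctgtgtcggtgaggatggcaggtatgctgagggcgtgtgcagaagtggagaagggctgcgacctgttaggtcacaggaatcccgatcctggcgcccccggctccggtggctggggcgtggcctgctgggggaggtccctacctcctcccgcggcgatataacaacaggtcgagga
The Krt20 sequence held GGAATG 139, 134 and 74 bases before the start, the first of these sharing a base with the next, and TATAAA 29 bases before it. Of 32851 mouse promoter windows of the same length, 12.6% held GGAATG and 7.59% held TATAAA, while 6.75% held TGANTCA. None of these letters were found in the windows of Krt23, Krt8 and Krt18. A match is a run of letters and says nothing about binding.

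The total per sample was between 2718537 counts (a hepatocyte preparation) and 6789683 (an explant), each sample being the sum of 3 technical libraries. Explants and irises were deeper than the other groups, from 4596585 counts, and the other groups reached 3871435 at most, so a rare gene was less likely to give a read in those. The 8 iris and pigment genes summed to between 6439.7 and 8144 TPM in explants, 8932 to 9348 TPM in irises and 546 to 558 TPM in livers. The 10 hepatocyte genes summed to between 4909.7 and 7014 TPM in explants, 1577 to 1868 TPM in irises and 13953 to 14604 TPM in livers. The explants, whose labelled cell type is hepatocyte, lay between irises and livers for both lists. The share of iris in each explant, solved from the deposited tables before and after the correction for iris by the authors, was 82, 68, 81, 72 and 59% in explants 1, 2, 4, 5 and 6. The corrected values of explant 4 did not follow the formula of the study, which multiplies the share by the mean iris TPM. For explant 4 the share was solved as a number subtracted from that mean. In these bulk samples, fewer cells of a type and less RNA per cell cannot be told apart. The labels give no animal for a sample, so p-values measure the spread between these samples.

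Several samples stood apart from their group. Spheroid sample 1 was above sample 2 in every member except Epcam, and in the surface protein gene Cd24a (257 and 39.1 TPM). The 25 other cholangiocyte genes, described below, summed to 1068 and 556 TPM in spheroid samples 1 and 2. Explants 1 and 4 held 780.1 and 1967 TPM of the 14 keratins of stratified epithelium, against 315, 103 and 419 TPM in explants 2, 5 and 6. Liver 1 was the highest liver for Krt7, Krt8, Krt18, Krt19, Krt23, Epcam and Spp1. Its 10 macrophage genes summed to 794 TPM, against 336 and 440.3 TPM in livers 2 and 3. Liver 1 also had the highest sum of the 25 other cholangiocyte genes, at 874 TPM against 736 and 709.7 TPM in livers 2 and 3. The same held for the 5 mesothelial genes, at 64.7 TPM against 14.01 and 40.4 TPM. The part of these 3 lists in the differences between livers was not tested.

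Krt8 was at 612, 537 and 458 TPM in livers 1 to 3 and at 442, 501 and 484 TPM in hepatocyte preparations 1 to 3. The spheroids in vitro had 1494 and 912 TPM, above every other sample. Irises had 114, 94.9 and 89.4 TPM, and explants 1, 2, 4, 5 and 6 had 386, 458, 245, 442 and 638 TPM. Explants, livers and hepatocyte preparations overlapped in Krt8, and all explants lay above the irises. By group mean the order was spheroids (1203 ± 411 TPM, SD, n = 2), livers (536 ± 76.9, n = 3), hepatocyte preparations (476 ± 30.1, n = 3), explants (434 ± 142, n = 5) and irises (99.3 ± 12.7, n = 3).

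Krt18, the partner of Krt8, was also highest in spheroids. It was at 1728 and 1185 TPM in spheroids, 938, 739 and 673 TPM in livers and 597, 744 and 807 TPM in hepatocyte preparations. Explants had 719, 781, 589, 779 and 899 TPM and irises 526, 414 and 374 TPM. Liver, hepatocyte preparation and explant levels of Krt18 overlapped, and the iris was the lowest group, but at 438 ± 78.8 TPM (SD, n = 3) it was far from empty. The ratio of Krt8 to Krt18 in TPM was 0.216 to 0.239 in irises, 0.600 to 0.741 in hepatocyte preparations, 0.652 to 0.727 in livers, 0.770 and 0.864 in spheroids and 0.416 to 0.709 in explants. No explant reached down to the iris ratio, and explant 4, with the most keratins of stratified epithelium, had the lowest.

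Of the 54 keratin genes in the annotation, Krt8 and Krt18 gave 96.2 to 99.1% of the summed keratin TPM in every liver, hepatocyte preparation and spheroid sample. In irises they gave 52.4 to 77.2%, and in explants 1, 2, 4, 5 and 6 they gave 54.1, 75.3, 27.1, 86.5 and 74.0%. The hepatocyte pair was thus nearly the whole keratin output of liver-derived samples outside the eye and a varying part of it in explants. A group mean of 5 TPM or more was reached by 18 keratins. Besides the 6 members, these were Krt4, Krt5, Krt6a, Krt6b, Krt10, Krt12, Krt13, Krt14, Krt15, Krt24, Krt80 and Krt222. Krt15 and Krt12, keratins of the limbus and the cornea, were the most abundant of them, with explant means of 217 and 163 TPM, iris means of 82.9 and 49.6 TPM and liver means of 4.29 and 1.59 TPM. Krt10 and Krt222 were higher in the iris mean (32.2 and 18.7 TPM) than in the explant mean (20.9 and 11.9 TPM).

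Krt19 was at 49.3, 12.4, 43.7, 4.85 and 16.2 TPM in explants 1, 2, 4, 5 and 6. Irises had 8.41, 14.9 and 5.23 TPM and livers 12.8, 6.83 and 5.33 TPM. The hepatocyte preparations had 0, 0 and 1 reads, and spheroids 8 and 0 reads. Explants 1 and 4 stood above every other sample, explants 2 and 5 lay within the range of irises or below it, and explant 5 was the lowest of all explants and irises. Krt7 followed the same order of samples in the explants, with 9.57, 4.57, 8.71, 2.31 and 4.74 TPM, and was at 2.81, 3.55 and 1.03 TPM in irises and 3.06, 0.898 and 1.59 TPM in livers. Hepatocyte preparations held 1, 0 and 0 reads of Krt7, and spheroids 6 and 2. Explants and irises overlapped for both genes. Every explant library held reads of both, 15 of 15 technical libraries, as did 9 of 9 libraries of irises and of livers.

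**Figure D1:**
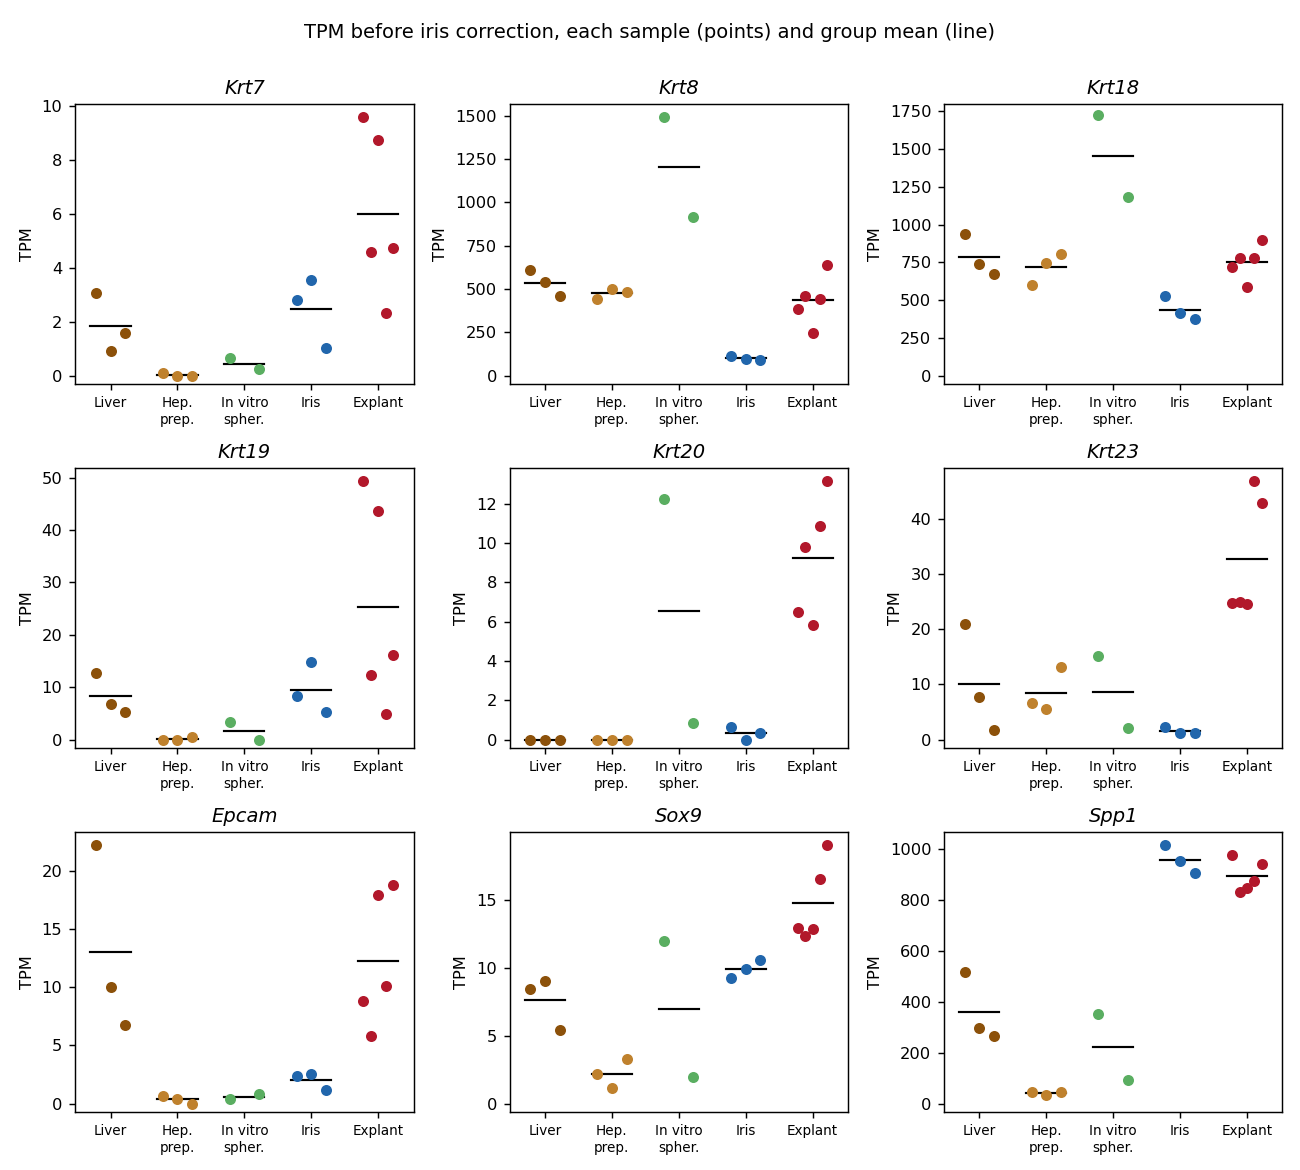
Level of each gene in TPM before any correction for iris (vertical axes, linear, separate for each gene) in livers, hepatocyte preparations, in vitro spheroids, irises and explants, with a point per sample and a line at the group mean. Krt20 sat at 0 in all livers and hepatocyte preparations, Krt23 was above all other samples in every explant, and Spp1 was high in irises and explants alike.

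Of the 14 keratins of stratified epithelium, 7 were highest in explants 1 and 4, like Krt7 and Krt19, namely Krt4, Krt5, Krt6a, Krt13, Krt14, Krt15 and Krt80. Krt4, a keratin of mucosal epithelium, was at 102 and 85.4 TPM in explants 1 and 4 and at 5.04, 1.00 and 4.93 TPM in explants 2, 5 and 6. Krt13, its usual partner, was at 126 and 235 TPM against 26.1, 3.06 and 36.8 TPM, and Krt15 at 347 and 496 TPM against 81.4, 39.3 and 123 TPM. Explant 5 was the lowest for Krt4, Krt13 and Krt15, as for Krt7 and Krt19. The other 7 did not have this split, but Krt76 had no read in any sample and Krt16 at most 2 in a sample, too few to show it. Among them were the corneal keratin Krt12, with 6.76 TPM in explant 1, 576 TPM in explant 4 and 135 TPM in explant 6, and Krt10, with 16.9 to 23.1 TPM over the explants. The 10 other genes of ocular surface epithelium summed to 603, 593, 1839.5, 384 and 751 TPM in explants 1, 2, 4, 5 and 6, and to between 468 and 614 TPM in irises. Of 11 stratified keratins tested in explants against irises none was called by edgeR, DESeq2 or limma-voom, 2 had an unadjusted p under 0.05 in edgeR, and Krt4 had a log2 fold change of 2.21 ± 1.35 (SE, adjusted p = 0.324). The part of such epithelium in the Krt7 and Krt19 of explants was not tested. Without explants 1 and 4, a setting chosen after seeing the data, the log2 fold change of explants over irises was 0.40 ± 0.51 (SE) for Krt19 and 0.81 ± 0.46 for Krt7, against 1.47 ± 0.69 and 1.36 ± 0.50 with all 5.

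**Figure D2:**
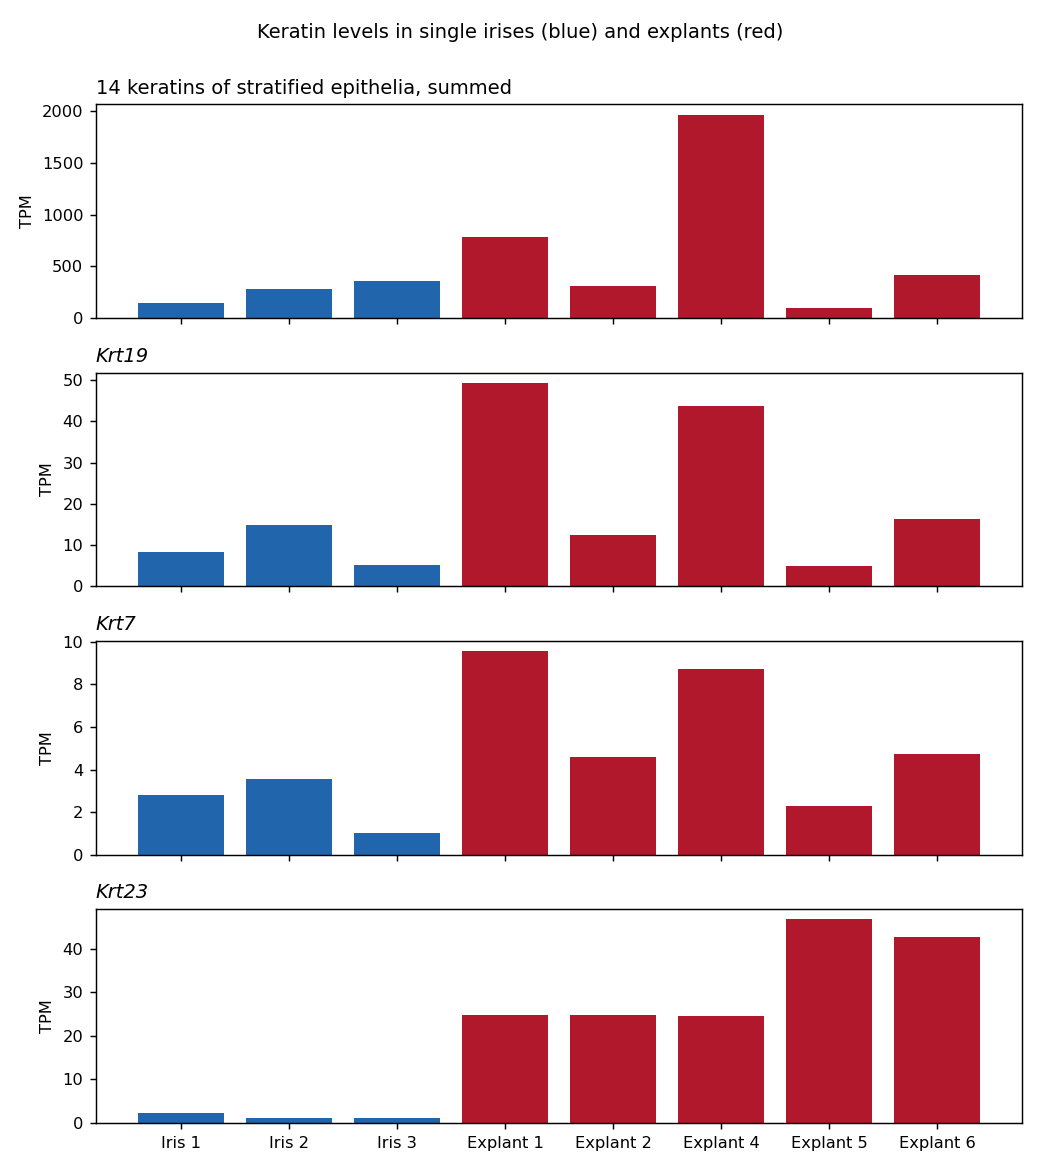
Summed TPM of 14 keratins of stratified epithelium, and TPM of Krt19, Krt7 and Krt23, in each iris (blue bars) and each explant (red bars), on linear axes from 0. The first 3 panels are highest in explants 1 and 4, whereas Krt23 is highest in explants 5 and 6 at 46.8 and 42.8 TPM.

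Krt20 gave 23, 37, 23, 49 and 53 reads in explants 1, 2, 4, 5 and 6, or 6.50, 9.82, 5.82, 10.9 and 13.2 TPM. Livers and hepatocyte preparations had 0 reads in 9 of 9 libraries each. Irises had 2, 0 and 1 reads, and spheroids 31 and 2 reads (12.2 and 0.835 TPM). Explants and irises did not overlap, and spheroid sample 1 was as high as the highest explants while spheroid sample 2 was near the irises. All 15 explant libraries held Krt20. The 0 of 11089178 liver counts allow up to 0.271 CPM (counts scaled to the library total, for 3 counts over the group), so the pooled explant level was at least 22.9-fold higher than in livers and at least 19.5-fold higher than in hepatocyte preparations, and that of spheroids at least 15.5-fold higher than in hepatocyte preparations. Over irises, with 3 reads in all, the ratio was 29.6 (95% interval 9.96 to 145, which covers counting error only). Explants 1 and 4, with the largest iris shares and the most stratified keratins, had the lowest Krt20.

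Krt23 was at 24.7, 24.8, 24.6, 46.8 and 42.8 TPM in explants 1, 2, 4, 5 and 6. It was at 2.30, 1.23 and 1.16 TPM in irises, 20.9, 7.65 and 1.69 TPM in livers, 6.71, 5.59 and 13.2 TPM in hepatocyte preparations and 15.1 and 2.06 TPM in spheroids. No sample of another group reached the lowest explant, although liver 1 came near it. The other groups overlapped, apart from irises and hepatocyte preparations, and the livers were widely spread. The log2 fold change of explants over irises was 4.46 ± 0.44 (SE), and 4.71 ± 0.38 without explants 1 and 4.

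Epcam was at 8.81, 5.77, 17.9, 10.1 and 18.8 TPM in explants and at 2.35, 2.52 and 1.19 TPM in irises, with no overlap and a log2 fold change of 2.69 ± 0.50 (SE). Livers had 22.2, 10.01 and 6.79 TPM and overlapped with the explants. Hepatocyte preparations held 2, 1 and 0 reads and spheroids 1 and 2. Explant 4 was high in Epcam and in stratified keratins, but explant 1 was not high in Epcam and explant 6 was.

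Sox9 was at 12.9, 12.4, 12.9, 16.6 and 19.1 TPM in explants, in TPM above every other sample. Spheroid sample 1 had 11.9 TPM and sample 2 had 1.95 TPM. By CPM, spheroid sample 1 (18.85) was above explants 1, 2 and 4 (17.98, 17.83 and 17.74). Irises had 9.29, 9.93 and 10.6 TPM, livers 8.42, 9.02 and 5.42 TPM and hepatocyte preparations 2.20, 1.15 and 3.26 TPM. The hepatocyte preparations lay below all livers. The irises were above all livers in TPM, but by CPM they overlapped, at 13.1 to 14.96 against 8.78 to 15.04. The log2 fold change of explants over irises was 0.68 ± 0.20 (SE).

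Spp1 was at 976, 829, 844, 873 and 939 TPM in explants and at 1014, 950.3 and 905 TPM in irises. Livers had 514, 298 and 263 TPM, spheroids 350.1 and 92.3 TPM and hepatocyte preparations 45.03, 32.3 and 44.2 TPM. Explants and irises overlapped, with a log2 fold change of 0.00 ± 0.08 (SE), and both lay above all other samples. Spp1 shares 309 of its 1648 exon bases with Gm42793, on the same strand, and the counting gave a read in an overlap to both genes. The Spp1 counts of 67 to 3361 per sample are the sum that includes such reads. The 10 macrophage genes summed to between 1321 and 2074 TPM in explants, 1159 and 1231 TPM in irises, 336 and 794 TPM in livers, 698 and 769 TPM in spheroids and 159 and 249.8 TPM in hepatocyte preparations. A single gene of the list, Gpnmb, gave 750 to 801 TPM in irises and 553 to 728 TPM in explants. It was at 30.4 to 54.0 TPM in livers and at 68.2 and 76.7 TPM in spheroids. The part of the macrophage genes in the Spp1 level was not tested. In explants against irises 6 of 10 were called higher and none lower (2 of 10 with limma-voom), among them Atp6v0d2 (log2 fold change 8.05 ± 0.74, SE, adjusted p = 0.000344), a proton pump subunit, and Adgre1 (2.22 ± 0.52, adjusted p = 0.0248), which encodes F4/80.

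Explants were compared with naïve irises (edgeR quasi-likelihood test, called where the adjusted p was below 0.05 and the log2 fold change beyond 1 in either direction). In this comparison the engrafted spheroids cannot be told apart from effects of transplantation and dissection. All 9 members passed the filter on low counts and 4 were called higher, Krt8, Krt20, Krt23 and Epcam, where 6.16% of the 16764 genes tested were. In 6 of 9, with Krt18 and Sox9 added, every explant was above every iris, as in 11.2% of genes. Since the members were chosen with these levels known, no more is read from the counts. The log2 fold change was 2.25 ± 0.31 (SE) for Krt8 and 0.89 ± 0.18 for Krt18.

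Of 25 other cholangiocyte genes, chosen as markers with earlier results of these data known, 25 were tested in explants against irises, 11 were called higher and none lower. Their median log2 fold change was 1.03, against 0.01 for all genes tested. The 11 included Onecut2 (2.49 ± 0.46, SE, adjusted p = 0.00887), a transcription factor that hepatocytes use as well, and Cldn3 (3.91 ± 0.46, adjusted p = 0.000924), a tight junction protein at 303 to 352 TPM in livers and 262 to 323 TPM in hepatocyte preparations. Tspan8 (4.49 ± 0.77, adjusted p = 0.00604), Cldn4 (2.55 ± 0.69, adjusted p = 0.0411), Cldn7 (1.94 ± 0.40, adjusted p = 0.0137), Elf3 (2.28 ± 0.56, adjusted p = 0.0296), Ehf (2.04 ± 0.57, adjusted p = 0.0459) and Cd24a (1.39 ± 0.25, adjusted p = 0.00828) are epithelial genes that were at 2.84 TPM or less in every hepatocyte preparation. Cdh1, which encodes E-cadherin, and the cystic kidney gene Pkhd1 were also called. The duct channel gene Cftr, the secretin receptor gene Sctr, the water channel gene Aqp1 and Prom1 were not called, and their iris means of 2.87, 2.67, 632 and 65.0 TPM were above their liver means of 0.329, 0.791, 181 and 2.73 TPM.

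**Figure D3:**
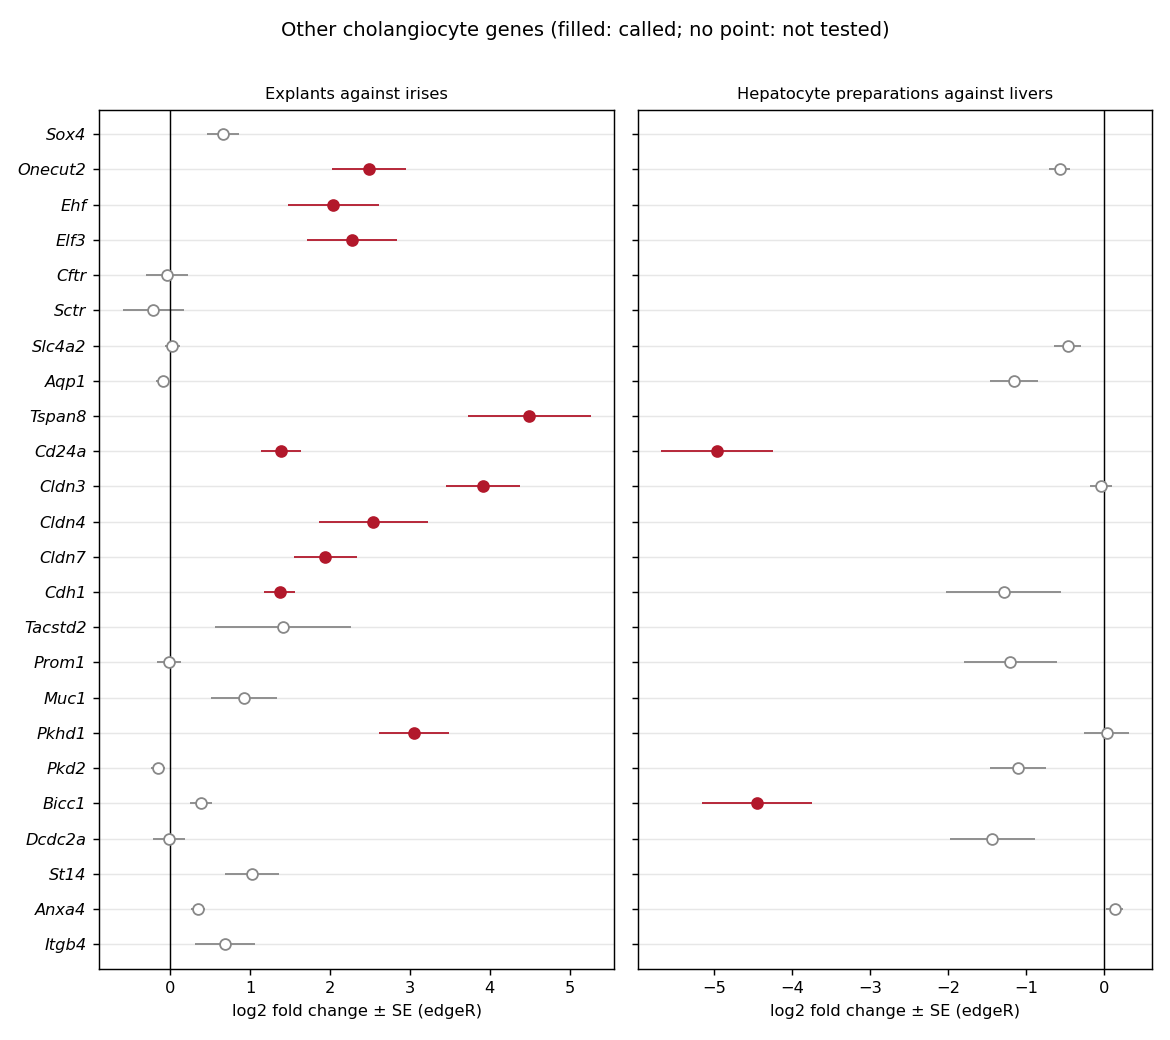
The log2 fold change with its SE (horizontal axes, edgeR) of 24 of the other cholangiocyte genes in explants against irises and in hepatocyte preparations against livers, filled where called and absent where a gene was not tested. In explants 10 of the genes drawn were called higher, and in hepatocyte preparations Cd24a and Bicc1 were called lower.

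Elf3, Cldn4 and Ehf were highest in explant 4, at 129, 54.3 and 13.4 TPM, the explant with the most stratified keratins, and Tspan8 was lowest there, at 10.6 TPM. Without explants 1 and 4, 10 of the 25 were called, Ehf being the gene lost. The count of 11 fell to 6 without iris 1, 7 without iris 2 and 6 without iris 3, and to 6 with limma-voom.

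Each explant was set beside the level that a mixture of mean iris and mean liver in its own proportions would have. The ratio of observed to mixture TPM for Krt20 was 25.4, 46.2, 23.01, 48.4 and 71.3 in explants 1, 2, 4, 5 and 6, where the mixture level rests on 3 iris reads. For Krt23 it was 7.97, 5.79, 7.74, 11.8 and 8.46. These members exceeded the mixture in all 5 explants by more than the others did. Krt8 was at 1.34 to 2.29 times the mixture, Krt18 at 1.17 to 1.55 times, Sox9 at 1.35 to 2.12 times and Epcam at 1.04 to 4.37 times. Spp1 was at 1.00 to 1.32 times the mixture. Krt19 and Krt7 ranged from 0.529 and 1.01 times in explant 5 to 5.31 and 4.07 times in explant 1. Every explant was above every iris and every liver for Krt20, Krt23 and Sox9, as for 2.21% of 19450 genes with a mean of 1 TPM or more.

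**Figure D4:**
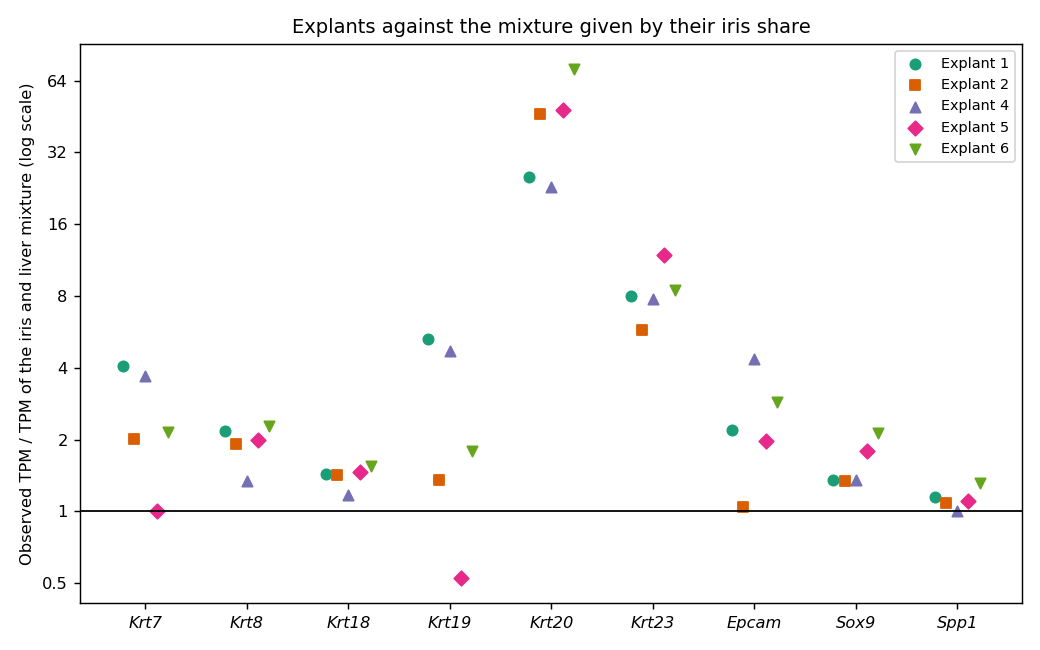
Ratio of observed TPM to the TPM of a mixture of mean iris and mean liver in the proportions of the explant (vertical axis, log scale, line at 1) for each gene, with a marker per explant. Krt20 lies between 23.01 and 71.3 and Krt23 between 5.79 and 11.8, and Krt7 and Krt19 are spread widely with explant 5 lowest.

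To compare engrafted spheroids with liver, iris was subtracted from the explant TPM with the formula in the methods of the study, and log2(TPM + 1) was tested with limma. Subtracted Krt20 was 34.7, 30.03, 29.3, 38.1 and 31.6 TPM, or 32.7 ± 3.63 TPM (SD, n = 5). Explants 1 and 4 were thus no longer the lowest pair, and the spread was small. Subtracted Krt23 was 130.1, 74.3, 123, 163 and 102 TPM. Subtracted Krt19 was 231, 18.6, 189, -7.13 and 25.9 TPM, so that explant 5 fell below 0 and was set to 0 in the test. Subtracted Krt8 was 1692, 1221, 864, 1324 and 1412 TPM and Krt18 was 2002, 1510.1, 1232, 1656 and 1562 TPM, all above every liver.

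All 9 members were tested in subtracted explants against livers and 5 were called higher, Krt8, Krt18, Krt20, Krt23 and Sox9, where 6.94% of 30079 genes were. The same 5 did not overlap with livers, as 14.1% of genes did. On the log2(TPM + 1) scale, which understates low genes, the difference was 5.07 ± 0.39 (SE) for Krt20, 3.86 ± 0.60 for Krt23, 1.70 ± 0.36 for Sox9, 1.26 ± 0.23 for Krt8 and 1.02 ± 0.19 for Krt18. For Krt8 and Krt18 the direction rests on the subtraction, since before it the differences were -0.36 ± 0.27 and -0.055 ± 0.16. Krt19 differed by 1.76 ± 1.60, and by -0.12 ± 1.24 without explants 1 and 4. The subtracted values still held iris genes, 2 of 8 being called higher than in livers, among them Pax6, a transcription factor of the eye, by 3.77 ± 0.64 (SE, adjusted p = 0.00919, limma), and their part in the members was not tested.

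Of the 25 other cholangiocyte genes, 8 were called higher in subtracted explants than in livers and none lower, namely Elf3, Prom1, Cldn4, Cdh1, Cd24a, Tspan8, Cldn7 and Sox4. Before subtraction Prom1 had a lower mean in explants (60.2 TPM) than in irises (65.0 TPM), with 2.73 TPM in livers. The others had higher means in explants than in irises. The remainder of iris after the subtraction was not tested as a source. The largest difference was that of Elf3, an epithelial transcription factor, at 4.82 ± 0.72 (SE, adjusted p = 0.0054, limma). Cdh1 differed by 1.62 ± 0.28 (adjusted p = 0.00964). The median over the list was 1.77, and 0.37 over all genes tested. The 8 calls fell to 1 without liver 2 and to 1 without liver 3. Calls of members fell from 5 to 2 in the same settings, and calls over all genes from 2676 to 1040 and 1007. Without liver 1, 8 genes of the list and 4 members were called.

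Against spheroids kept in vitro, subtracted explants were called higher for Krt23 and Epcam of 9 members, where 2.83% of 29560 genes were. In 6 of 9, all but Krt8, Krt18 and Krt19, every subtracted explant was above both spheroid samples, as for 12.6% of genes. The 2 calls fell to 1 without spheroid 2, and to 1 without explants 1 and 4. The log2(TPM + 1) difference was 4.57 ± 0.69 (SE) for Epcam and 4.05 ± 0.63 for Krt23. It was 0.12 ± 0.30 for Krt8 and 0.14 ± 0.24 for Krt18, which overlapped, and 2.77 ± 0.71 for Krt20. Of the other cholangiocyte genes 4 of 25 were called higher and none lower, Cldn7 (5.28 ± 0.67, adjusted p = 0.00877, limma), Prom1, Aqp1 and Cdh1, with a median of 1.93 over the list and 0.36 over all genes. These 4 calls fell to 0 without spheroid 2, and to 2 without explant 1, explant 5, explant 6 or spheroid 1. Before subtraction Prom1 and Aqp1 had lower means in explants (60.2 and 553 TPM) than in irises (65.0 and 632 TPM). Cldn7 and Cdh1 had higher means in explants. The part of remaining iris in these calls was not tested.

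The hepatocyte preparations were compared with livers to see what the isolation kept. Of the 9 members 7 passed the filter on low counts, Krt7 and Krt20 being left out, and 3 were called lower, Krt19, Epcam and Spp1, where 2.31% of 12236 genes were. All hepatocyte preparations were below all livers for these and for Sox9, as for 22.5% of genes. Spp1 fell by 2.99 ± 0.27 on the log2 scale and Sox9 had a log2 fold change of -1.65 ± 0.42 (SE). With 1 read of Krt19 in 3 preparations, the ratio of livers to preparations was 57.1 (95% interval 9.90 to 2288), for Krt7 it was 48.6 (8.37 to 1951) and for Epcam, with 3 reads, 32.7 (10.9 to 161). Krt8 and Krt18 had log2 fold changes of -0.03 ± 0.14 and 0.02 ± 0.17, and Krt23 of -0.09 ± 0.74.

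Of the other cholangiocyte genes 13 of 25 passed the filter in this comparison and 2 were called lower, Cd24a (-4.96 ± 0.72, SE, adjusted p = 0.0262, edgeR) and Bicc1 (-4.44 ± 0.70, adjusted p = 0.031), an RNA-binding protein of tubular epithelia. None was called higher. The median over the list was -1.11, and 0.01 over all genes tested. The 3 calls of members fell to 1 of 8 tested, and both of these calls were lost, without hepatocyte preparation 2, hepatocyte preparation 3 or liver 2, where 15, 8 and 20 genes were called in all in place of 333. With limma-voom, 1 of 7 members and none of the 13 list genes was called. Of the 10 macrophage genes 9 were tested and none was called by edgeR or limma-voom, with a median of -1.41, while 6 had an unadjusted p under 0.05 in edgeR and DESeq2 called 4. Their sums of 159 to 249.8 TPM in preparations were below those of all livers.

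Spheroids kept in vitro were compared with hepatocyte preparations. Of the 9 members 5 were tested and Spp1 was called higher, where 8.13% of 12247 genes were. Both spheroid samples were above all preparations for Spp1, Krt8 and Krt18, as for 40.5% of genes. The log2 fold change was 2.06 ± 0.44 (SE) for Spp1, 0.98 ± 0.22 for Krt8, 0.67 ± 0.23 for Krt18, 1.27 ± 0.70 for Sox9 and -0.35 ± 0.72 for Krt23. Krt7, Krt19, Krt20 and Epcam did not pass the filter, with 8, 8, 33 and 3 reads over both spheroid samples, and 31 of the 33 Krt20 reads came from spheroid sample 1. Spp1 was at 350.1 TPM in sample 1 and 92.3 TPM in sample 2. Without sample 1 none of the 5 members was called, and without sample 2, 3 of 6 were; leaving out hepatocyte preparation 2 or 3 gave 2 of 5.

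In this comparison 12 of the 25 other cholangiocyte genes were tested, with a median of 0.24 against 0.01 for all genes. Elf3 (2.64 ± 0.51, SE, adjusted p = 0.00898, edgeR), Cd24a (7.17 ± 0.94, adjusted p = 0.002) and the membrane protease gene St14 (4.86 ± 0.94, adjusted p = 0.0091) were called higher. Onecut2 was called lower (-1.38 ± 0.25, adjusted p = 0.00682). Without spheroid sample 2 the 4 calls became 7. Of the macrophage genes 6 of 9 were called higher, Mmp12, a macrophage elastase, by 5.45 ± 0.37 (adjusted p = 0.000153).

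Proteins that tie keratins to cell junctions, a list of 9 of which 8 were tested in explants against irises, gave 1 call there, the desmosomal plakin gene Dsp (3.04 ± 0.59, SE, adjusted p = 0.0108, edgeR). Dsp was at 16.9 to 19.5 TPM in livers and 0.499 to 1.39 TPM in irises. In spheroids against preparations Jup, which encodes plakoglobin, was called higher (1.04 ± 0.18, adjusted p = 0.00545), 1 of 7 tested. Limma-voom did not call Dsp. Of 6 chaperone and degradation genes none was called in explants against irises by any of the 3 tools (2 with an unadjusted p under 0.05 in edgeR), and Hspa1a was called lower in spheroids by edgeR (-1.96 ± 0.54, adjusted p = 0.034) but not by DESeq2 or limma-voom. Of 7 receptors of Spp1 none was called in explants against irises by the same tools (2 with an unadjusted p under 0.05 in edgeR), Cd44 was called higher in spheroids against preparations (3.09 ± 0.80, adjusted p = 0.0263), and Itga4 and Itgb5 were called lower in preparations against livers. These 3 calls were lost with limma-voom, and DESeq2 called 5 of the 7 in preparations against livers. In subtracted explants against livers Cd44 was the call of the 7 (4.14 ± 0.41, adjusted p = 0.0013, limma), with 49.7 TPM in the iris mean and 5.72 TPM in the liver mean.

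The Notch pathway, which directs the duct fate of liver progenitors and acts upstream of Sox9, had 12 genes tested in explants against irises and 1 called, the ligand gene Dll4 (1.04 ± 0.29, SE, adjusted p = 0.0486, edgeR). In preparations against livers none of 7 was called by edgeR, with 4 at an unadjusted p under 0.05, and DESeq2 called 2, and 1 of 6, the receptor gene Notch1, was called higher in spheroids (1.30 ± 0.40, adjusted p = 0.0494). Dll4 was not called by DESeq2 or limma-voom, and Notch1 was not called by limma-voom. DESeq2 called 1 of the 12 Notch genes in explants against irises, and limma-voom called none. In subtracted explants against livers the ligand genes Jag1 and Dll1 and the target genes Heyl and Hes5 were called higher, 4 of 12. Their iris means were above their liver means, at 10.9 and 2.32 TPM for Jag1, and the remainder of iris after the subtraction was not tested as a source. Hes5 ranged from 4.91 to 59.1 TPM over explants.

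The genes most alike to each member were taken by Pearson correlation of log2(TPM + 1) over the 16 samples, among 19324 genes with a symbol and a mean of 1 TPM or more. These samples share 5 groups and differ in depth, so the values describe group patterns. Krt7 and Krt19 were each the nearest gene to the other (0.96), and Krt8 was among the 3 nearest to Krt18 (0.94). Among the genes nearest to Krt8 were Tm4sf4 (0.96) and Slc17a4. Sox9 was nearest to Bicc1 (0.96), which is also on the cholangiocyte list, followed by Zfp710 and Ptpn1, and Krt18 to Pdlim1 (0.95) and Litaf. Krt20 was nearest to Akr1c18 (0.95), Guca2b and Pak6, and Krt23 to Ubd (0.89), Cdca3 and Rasal1. Epcam was nearest to Plac8 (0.91), Ifi203 and Pamr1, and Spp1 to Gm42793 (0.99), with which it shares reads, Tmsb4x and Ccser2. For Krt7 the next were Pglyrp1 and Slfn2, and for Krt19 Ppp1r13b and N4bp1.

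Among the members themselves, over the same 16 samples, Krt8 had -0.32 with Krt19, -0.42 with Spp1 and 0.48 with Krt23. Krt20 and Krt23 had 0.73 with each other, and Sox9 and Spp1 had 0.93. Krt19 had 0.77 with Epcam and 0.36 with Krt23.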

How the data were processed

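RNA was isolated with a QIAGEN RNeasy kit and libraries were made with Smart-seq3. Per the labels and the study's methods, the authors aligned reads to mm10 with TopHat2, removed duplicates and counted exon reads with featureCounts 1.4.6-p5. The deposited counts, per the file headers, were made without strand and gave a read in an overlap to every gene there. The authors' TPM come from these counts and joined exon lengths. The authors' corrected table, from which iris was subtracted, was used for its gene symbols, to solve the iris shares and as an alternative (its explant columns are a score here, since the column of explant 4 matched the stated formula in 16.4% of genes).

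The 3 libraries of a sample were summed (48 libraries, 16 samples), which gave the deposited counts of 46517 genes and 92 ERCC controls in 100% of cells. For counts the test was the quasi-likelihood test of edgeR 4.0.16, after filterByExpr and TMM scaling, and for iris-subtracted TPM it was limma 3.58.1 on log2(TPM + 1), in R 4.3.3, both with Benjamini-Hochberg adjustment over all genes tested. Negative subtracted values were set to 0. The fits were run on simulated counts with known changes in genes with many reads. That run tested neither genes with few reads nor iris-subtracted values. DESeq2 1.42.0, limma-voom, other scalings and filters, and leaving out samples were alternatives. Totals of 2718537 to 6789683 counts limit the precision of genes with few reads, and intervals are exact (Clopper-Pearson) and cover counting error only.

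The members and all gene lists were chosen with earlier results of these data known. Genes named are the 9 members, genes of the lists, keratins at 5 TPM or more in a group mean, and the 3 genes most alike to each member. Some genes of the lists and of the nearest genes are not reported here by name. Columns of comparisons made by the authors were not used.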

Additional observations from a re-analysis of the deposited data

Results flagged for a closer look

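Among the explants, the summed TPM of the 10 other genes of ocular surface epithelium had a sample far from the rest. Explant 4 was at 1839.5 TPM and the next explant at 751 TPM, a gap of 0.748 of the whole range of the 5 explants. The check was run on 21 quantities, the 9 members and 12 gene lists, and chance alone would pick about 1 in 20. No member was picked. Explant 4 was also the explant with the lowest Krt8, Krt18 and Krt20 and with the second highest Krt7, Krt19 and Epcam. Its part in the levels of these genes was not tested.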

How the results depend on the processing

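The number of genes called in explants against irises, 1085, was 1975 with no fold change limit, 583 with limma-voom and 644 with at least 10 counts in every sample, and 583 to 1259 when leaving out each sample. The 11 other cholangiocyte genes became 6 with limma-voom, 5 with at least 10 counts in every sample and 6 to 11 when leaving out samples. In hepatocyte preparations against livers, 333 genes became 647 with DESeq2, 20 with limma-voom, 1205 with no filter, 169 with at least 10 counts, 165 with technical libraries a alone, 1140 with all 5 groups in 1 fit and 8 to 448 when leaving out samples. The 2 cholangiocyte genes became 0 with limma-voom (at an unadjusted p under 0.05 edgeR gave 3100 genes in all), 10 with no filter, 0 with at least 10 counts, 6 with all groups and 0 to 3. In spheroids against preparations, 2112 genes became 1466 to 1994 when leaving out samples, and the 4 cholangiocyte genes became 9 with no filter, 1 with at least 10 counts, 8 with all groups and 3 to 7. In subtracted explants against livers, 2676 genes became 1430 with the deposited corrected values, 10108 with TPM before correction and 1007 to 3530, and the 8 cholangiocyte genes, all higher, became 18 before correction (16 higher, 2 lower) and 1 to 9. Against spheroids, 1086 genes became 485, 8582 and 542 to 1219, and the 4 cholangiocyte genes, all higher, 2 and 14 (12 higher, 2 lower) in the same settings, 2 without explants 1 and 4, which was chosen after seeing the data, and 0 to 4. TPM before correction reversed Krt8 (-0.36) and Krt18 (-0.055) against livers. The cause of these shifts was not tested.

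Replicate numbers were not used as pairs in the main tests. Correlations of deviations of same-numbered samples were 0.11, 0.07 and -0.03 for preparations with livers. They were 0.08 and 0.11 for spheroids with preparations and 0.07 and -0.10 for explants with irises. Differently numbered samples were not correlated, so these values cannot tell whether same-numbered samples shared an animal or batch. The replicate block used only replicate numbers found in both groups. Explants 4, 5 and 6 thus dropped out, with iris 3, liver 3 and, against spheroids, preparation 3. Its counts therefore do not show the effect of blocking alone. Under it, explants against irises gave 797 calls and 7 cholangiocyte genes, preparations against livers, with all samples, 408 and 2, and spheroids against preparations 1981 and 4. Subtracted explants against livers gave 0 and 0 (limma, with 3533 genes at an unadjusted p under 0.05), and against spheroids 334 and 0. Members called under the block were 3, 3 and 2 in the first 3 comparisons and 0 of 9 in both comparisons of subtracted explants.

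Depth limits Krt7, Krt19 and Epcam in hepatocyte preparations and spheroids, and Krt20 outside explants and spheroid sample 1. Of the log2 differences of members under alternatives, 546 moved by less than their SE and 59 by more, apart from the reversals of Krt8 and Krt18 above, which were called members. Counting members that were not called too, 13 of 39 differences changed sign under some alternative, many of them near 0. Against livers these included Spp1 (-0.75 with the deposited corrected values), Krt19 (-0.12 without explants 1 and 4) and Epcam (-0.039 before correction), against spheroids Krt8 (-1.49) and Krt18 (-0.94) before correction, and in spheroids against preparations Sox9 (-0.38 without spheroid 1). Under Spearman's rho and a pseudocount of 0.1, none of the 9 members kept all 3 of its nearest genes by both.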

Other observations

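Cdh1, which encodes E-cadherin, was at 24.2, 0.695 and 27.9 TPM in hepatocyte preparations 1 to 3 and at 37.7 and 3.17 TPM in the spheroid samples. Livers had 64.9, 38.9 and 39.9 TPM, irises 21.6 to 25.8 TPM and explants 50.2 to 77.2 TPM. Preparation 2 and spheroid sample 2 were thus the samples with little Cdh1, and both Krt8 and Krt18 were at the level of their group in preparation 2.

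Sprr1a, a cornified envelope gene on the list of ocular surface epithelium, was at 699.8 and 84.9 TPM in spheroid samples 1 and 2, against 0.869 to 6.69 TPM in hepatocyte preparations (log2 fold change 6.59 ± 0.99, SE, adjusted p = 0.0034, edgeR). It was the call of 2 genes of that list tested there. It was also the call of the 10 genes of that list in explants against irises by edgeR (3.95 ± 0.81, adjusted p = 0.0135), at 9.08 to 90.2 TPM in explants. DESeq2 called 2 of the 10 there. Limma-voom called none of the list in either comparison.

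Of the 4 lens genes tested, Cryaa, Cryba1 and Crygs were called lower in explants than in irises, Crygs by a log2 fold change of -2.54 ± 0.48 (SE, adjusted p = 0.00937, edgeR). All 10 hepatocyte genes were called higher in explants than in irises, and none of the 8 iris and pigment genes was called by edgeR, DESeq2 or limma-voom, with 6 at an unadjusted p under 0.05 in edgeR. Of the 2 mesothelial genes tested none was called by these tools, with 1 at an unadjusted p under 0.05. The mesothelial gene Msln was called lower in hepatocyte preparations than in livers (-6.20 ± 1.11, adjusted p = 0.0354, edgeR), and not with limma-voom. Limma-voom called 2 of the 4 lens genes and 9 of the 10 hepatocyte genes in explants against irises.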
